A study of Mus musculus with 40 samples.

Results

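Basal cells and fibroblasts sorted from the same adult mammary glands were compared library by library. These were 8 basal and 8 fibroblast libraries, 16 of the 40 samples in the series, and the labels alone assigned each library to its group: each basal library was set against the fibroblast library of the same stage and replicate number, so that every pair came from one pool of mice. All mice were wildtype FVB/N females, and the adult mice were 14 to 16 weeks old. The 8 pools covered proestrus, estrus, metestrus and diestrus, with 2 pools per stage, and each pool joined cells of several mice, so a pool and not a mouse was the replicate. Basal cells had been sorted as lineage-negative cells with medium EpCAM and high CD49f, and the fibroblasts as lineage-negative cells that carried neither EpCAM nor CD49f, after depletion of cells bearing CD45, CD31 or Ter119. No fibroblast surface protein entered this gate. The labels call these libraries stromal, and they are called fibroblasts here because the authors used that name. PolyA RNA was sequenced, and the luminal libraries of the same 8 pools and 4 pubertal libraries of both cell types served for comparison.

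The mammary epithelium is a bilayer. Basal cells, which are largely myoepithelial, line the outside of ducts, rest on the basement membrane and contract in response to oxytocin to expel milk. They are epithelial cells that also carry a smooth muscle apparatus. Fibroblasts lie across the basement membrane in the stroma, secrete the collagens and proteoglycans of the interstitial matrix, and send growth factors to the epithelium.

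The 16 libraries held between 8991222 and 20876762 counts, with medians of 16762483 in basal cells and 16425890.5 in fibroblasts. Levels are given as RPKM, the read count scaled to summed exon length and to library size, set over the 32 adult libraries, and differences as the log2 of basal cells over fibroblasts with its standard error. The libraries labelled basal and stromal carried marker genes of basal cells and of fibroblasts, respectively, in all 8 pools. Keratin 14, encoded by Krt14, pairs with keratin 5 in the cytoskeleton of basal epithelial layers. Krt14 lay between 2730 and 4308 RPKM in basal cells, with a median of 3306, and between 4.21 and 52.5 in fibroblasts, with a median of 10.5. Krt5 ranged from 610 to 1093 RPKM in basal cells, median 854, and from 0.911 to 11.8 in fibroblasts, median 2.47. The lowest basal library thus stood far above the highest fibroblast library for both keratins.

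Col1a1, one of the chains of type I collagen, showed the reverse pattern. It lay between 0.304 and 2.24 RPKM in basal cells, with a median of 1.0, and between 373 and 1373 in fibroblasts, with a median of 833. Pdgfra, a receptor tyrosine kinase of fibroblasts, ranged from 0.297 to 1.43 RPKM in basal cells, median 0.603, and from 46.4 to 120 in fibroblasts, median 89.5. Dcn, the small proteoglycan decorin that binds collagen fibrils, ranged from 5.26 to 12.5 RPKM in basal cells, median 6.62, and from 1038 to 2641 in fibroblasts, median 1507. None of these 3 genes overlapped between the cell types.

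Each library held a trace of the other type's markers. The summed level of Krt5, Krt14 and Krt17 in a fibroblast library was 0.105% to 1.68% of that in the basal library of its pool, with the highest share in diestrus replicate 1. The summed level of Col1a1, Col1a2, Col3a1, Dcn, Lum and Pdgfra in a basal library was 0.136% to 0.359% of that in its fibroblast library.

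**Figure D1:**
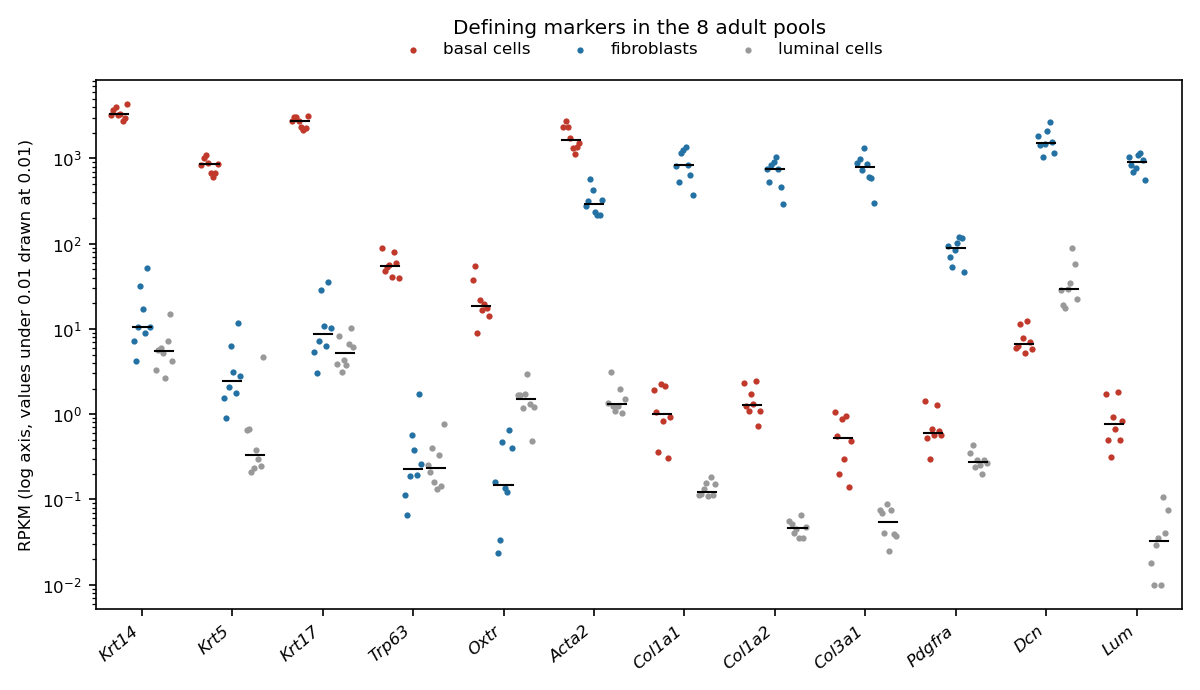
RPKM on a log axis of 12 defining markers in the 8 adult pools, with 1 point per library and a black bar at the median of each cell type. Keratins, Trp63, Oxtr and Acta2 sat higher in all 8 basal libraries, and collagens, Pdgfra, Dcn and Lum in all 8 fibroblast libraries; Krt14 spanned 2730 to 4308 RPKM in basal cells and 4.21 to 52.5 in fibroblasts.

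The fibroblast libraries also carried RNA of other stromal cells. All 14 endothelial markers were higher in fibroblasts, where 39.1% of all genes tested were. Among these markers was Pecam1, which encodes CD31. Pecam1 lay between 0.349 and 1.55 RPKM in basal cells, median 0.603, and between 48.0 and 153 in fibroblasts, median 90.8. The summed endothelial markers ran from 3.07 to 8.13 RPKM in basal cells and from 230 to 590 in fibroblasts. For the 14 markers of pericytes and vascular smooth muscle the sums were 43.0 to 104 RPKM in basal cells and 243 to 452 in fibroblasts, and 13 of them were higher in fibroblasts. Mcam was the exception at 0.59 ± 0.19 (SE; adjusted p = 0.0135). Summed Schwann cell markers ran from 72.6 to 138 RPKM in basal cells and from 224 to 493.1 in fibroblasts, against 124 to 153 in luminal cells. These 12 markers split: 7 were higher in fibroblasts, 2 higher in basal cells and 3 did not pass the test.

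Leukocyte markers summed to 15.9 to 29 RPKM in basal cells and 82.9 to 291 in fibroblasts, and 15 of the 16 that passed the filter on low counts were higher in fibroblasts. In luminal cells the sum was higher still, 400 to 704 RPKM, with 13 of the 18 markers under 0.1 RPKM. A few genes thus carried the luminal sum, and the sums do not measure leukocyte RNA alone. Ptprc, which encodes CD45, did not exceed 1.14 RPKM in any fibroblast library. Adipocyte markers summed to 40.5 to 57.4 RPKM in basal cells and 92.3 to 257 in fibroblasts, against 3075 to 11580 in the adipocyte libraries. Adipoq, the adipocyte hormone adiponectin, stayed at or below 2.29 RPKM in every fibroblast library. Luminal markers summed to 880 to 1175 RPKM in basal cells and 25.6 to 171 in fibroblasts, against 13140 to 16000 in luminal cells. Of 11 epidermal markers in the table, 4 passed the filter, with sums of 3.44 to 7.42 RPKM in basal cells and 2.03 to 8.48 in fibroblasts. Erythroid markers summed to at most 0.0651 RPKM in basal cells and to 0.613 to 56.1 in fibroblasts. The part of these other cells in each difference was not tested, and in bulk RNA fewer cells of a type and less RNA per cell cannot be told apart.

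**Figure D2:**
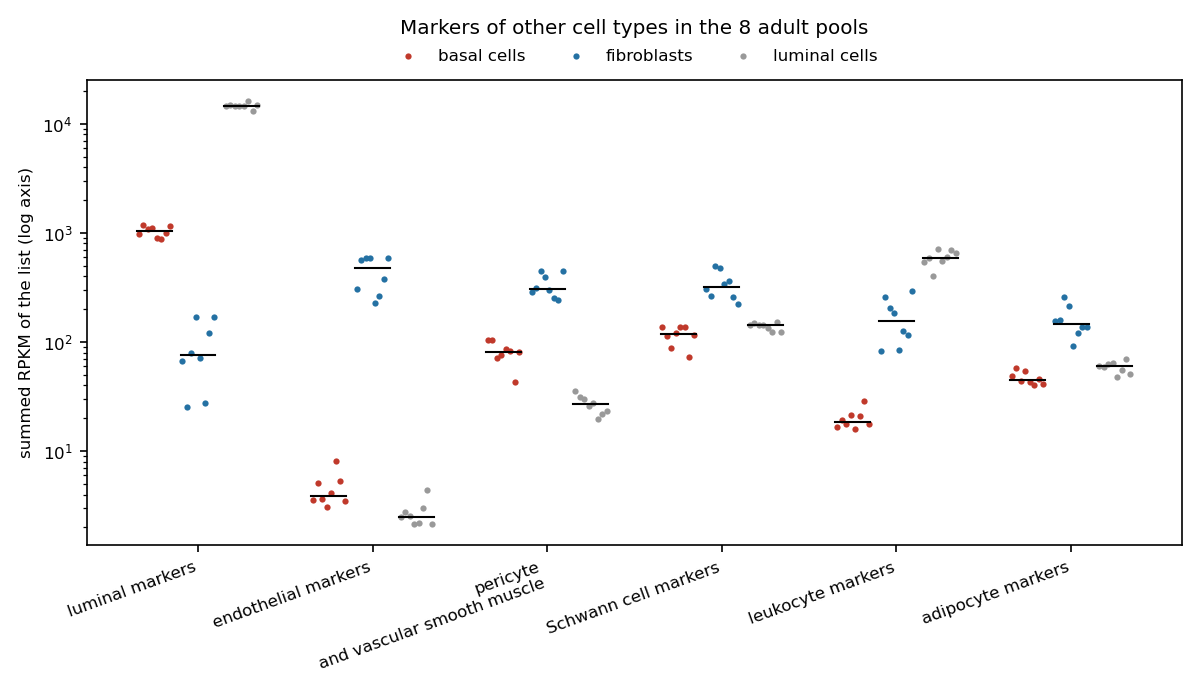
Summed RPKM on a log axis of 6 marker lists in each adult basal, fibroblast and luminal library, with a black bar at each median. Endothelial sums of 230 to 590 RPKM in the fibroblast libraries stood above the 3.07 to 8.13 of the basal libraries.

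The 2 cell types differed across most of the transcriptome. Of 13761 genes tested with edgeR's quasi-likelihood test, with the pool as a block, 5088 were higher in basal cells and 5385 higher in fibroblasts at a Benjamini-Hochberg adjusted p under 0.05, which is 37.0% and 39.1% of the genes tested. Large differences were less even. At least 8-fold differences with that adjusted p numbered 458 genes in basal cells (3.33%) and 1793 in fibroblasts (13%). These shares are the background for every list count in this report. A gene high in a single cell type could pass the filter on low counts through that type alone. The median log2 difference over all genes tested was 0.0088, and the median of its size was 0.78. In 2789 genes all 8 basal libraries lay above all 8 fibroblast libraries, and in 3211 genes the reverse held, 43.6% of the genes tested in all.

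**Figure D3:**
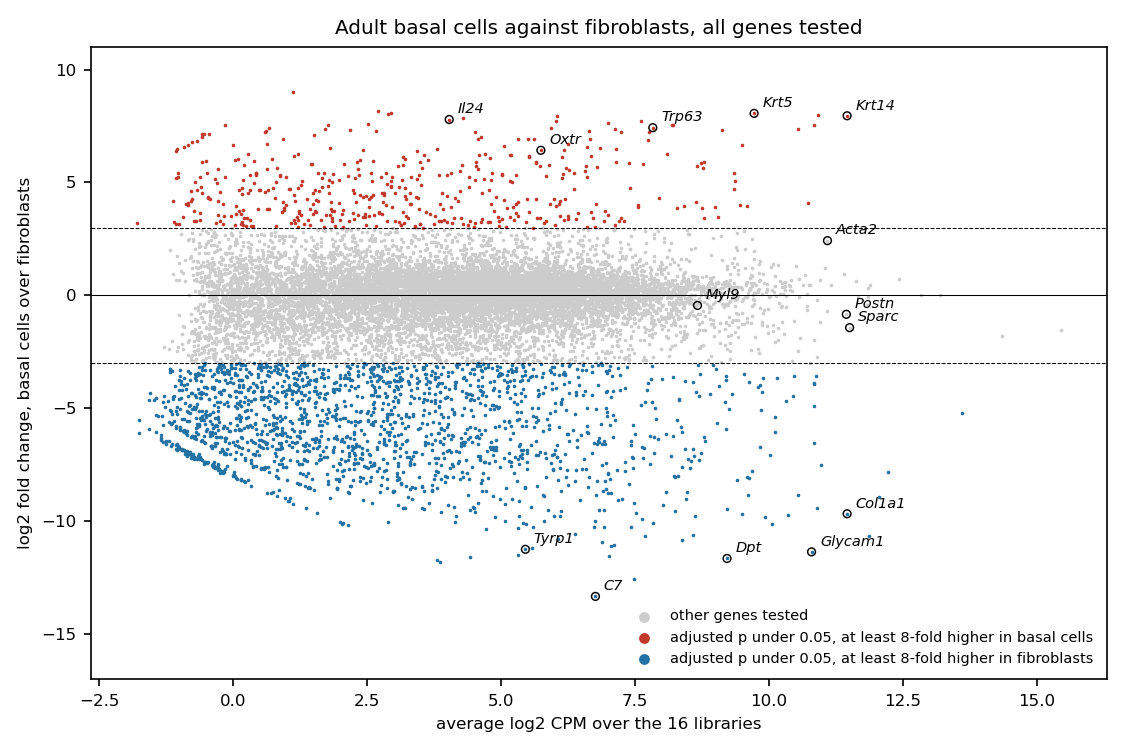
Log2 fold change of basal cells over fibroblasts against the average log2 CPM for the 13761 genes tested, with genes at least 8-fold different at an adjusted p under 0.05 in color and 14 genes circled. The 1793 blue genes reach below -13, while the 458 red genes stay under 9.

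The largest basal differences were those of epithelial structure. Among genes with at least 20 RPKM in basal cells and higher in all 8 pools, the 12 with the largest fold change included Krt5, Krt17, Krt14, Krt15, Krt42, Il24, Fermt1, Sfn, Pkp1, Col17a1 and Trp63, and their log2 differences ran from 8.06 down to 7.43. Sfn, the epithelial 14-3-3 protein stratifin, had a median of 2497 RPKM in basal cells and 13.7 in fibroblasts. Trp63, the p63 transcription factor that maintains basal epithelial cells, ranged from 39.9 to 89.3 RPKM in basal cells, median 54.4, and from 0.0663 to 1.73 in fibroblasts, median 0.225. The log2 difference of Trp63 was 7.43 ± 0.51 (adjusted p = 2.92e-08). Fermt1, the integrin activator kindlin-1, ranged from 64.0 to 87.2 RPKM in basal cells and from 0.0585 to 1.49 in fibroblasts.

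All 7 basal and stratified keratins that passed the filter were higher in basal cells, each by at least 8-fold, with a median log2 difference of 7.93. Of all genes tested, 37.0% were higher in basal cells and 3.33% by at least 8-fold. Krt75, one of the 7, ran the other way in diestrus replicate 2, at 0.904 RPKM in basal cells and 2.02 in fibroblasts. Its call was lost without the block, where its log2 difference was 1.81 (adjusted p = 0.0800). Krt14 differed by 248-fold (log2 7.95 ± 0.47, adjusted p = 7.27e-09) and Krt5 by 267-fold (8.06 ± 0.47, adjusted p = 6.08e-09). Of 6 simple keratins, most of them abundant in luminal cells, 5 passed the filter, and these 5 were also higher in basal cells than in fibroblasts. Krt20, which did not pass the filter, was higher in fibroblasts in each pool, at no more than 0.664 RPKM. Krt8 lay between 584 and 816 RPKM in basal cells, median 700.5, against a mean of 4310 in luminal cells, and between 5.28 and 50.8 in fibroblasts, median 21.1. Krt23, another type I keratin, set basal cells apart from both other types, with a median of 43.5 RPKM in basal cells, 0.780 in fibroblasts and a mean of 0.796 in luminal cells.

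Genes that fasten basal cells to the basement membrane and to each other were mostly higher in basal cells. Of 10 hemidesmosome and laminin receptor genes, 9 were higher in basal cells and 1 in fibroblasts, beside 37.0% and 39.1% of all genes tested. Col17a1, a transmembrane collagen of hemidesmosomes, ranged from 61.6 to 137 RPKM in basal cells, median 106, and from 0.157 to 1.30 in fibroblasts, median 0.396. Itga6 encodes CD49f, one of the proteins used for the sort, so its log2 difference of 3.98 ± 0.22 (adjusted p = 4.44e-09) is part of the selection. Its partner in epithelium, Itgb4, differed by 2.22 ± 0.20 (adjusted p = 4.81e-07), and Itga3 by 3.96 ± 0.24 (adjusted p = 8.11e-09). Plec, the cytoskeletal linker plectin, was the gene higher in fibroblasts, at -0.57 ± 0.16 (adjusted p = 0.00639), but not past the test in the fit of all 32 adult libraries (adjusted p = 0.0940).

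Of 25 adhesion and junction genes, 21 were higher in basal cells and 3 in fibroblasts, beside 37.0% and 39.1% of all genes tested. Pkp1, a plaque protein of desmosomes, had a median of 129 RPKM in basal cells and 0.601 in fibroblasts. Jup, plakoglobin, had medians of 130 and 12.2 RPKM. The 3 genes higher in fibroblasts were Cdh11, a cadherin of mesenchymal cells, at -5.07 ± 0.15 (adjusted p = 2.12e-11), Cldn5, a claudin of endothelium, at -7.16 ± 0.37 (adjusted p = 1.90e-09), and Cldn1 at -0.68 ± 0.18 (adjusted p = 0.00452), the last not past the test in the fit of all 32 adult libraries (adjusted p = 0.505). Cldn1 was low in both types, with medians of 0.522 RPKM in basal cells and 0.789 in fibroblasts, against a mean of 47.9 in luminal cells.

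Transcription factors of epithelial identity followed the keratins. Of 12 such regulators, 10 were higher in basal cells and 1 in fibroblasts, beside 37.0% and 39.1% of all genes tested. Their median log2 difference was 4.96. Grhl2, which controls epithelial junction genes, had a median of 5.72 RPKM in basal cells and 0.0263 in fibroblasts, and did not overlap. Esrp1, a splicing factor of epithelial cells, ranged from 12.6 to 19.2 RPKM in basal cells and from 0.0462 to 0.644 in fibroblasts. Grhl1, the gene higher in fibroblasts, differed by -0.57 ± 0.17 (adjusted p = 0.00828), with medians of 1.14 and 1.48 RPKM, and did not pass the test in the fit of all 32 adult libraries (adjusted p = 0.295). Ehf had a median of 0.169 RPKM in basal cells and 0.185 in fibroblasts, against a mean of 36.0 in luminal cells, and did not pass the test (adjusted p = 0.563).

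Of 12 transcription factors of the basal lineage, 8 were higher in basal cells and 2 in fibroblasts, beside 37.0% and 39.1% of all genes tested. Irx4, a homeodomain factor, ranged from 16.5 to 26.9 RPKM in basal cells, median 19.1, and from 0.0213 to 0.403 in fibroblasts, median 0.0913. Sox10, a factor of neural crest and of mammary epithelium, had medians of 45 and 2.57 RPKM. Tbx2 and Mef2c were the 2 genes higher in fibroblasts, at -1.75 ± 0.15 (adjusted p = 2.57e-07) and -3.17 ± 0.17 (adjusted p = 2.35e-09). Egr2 and Nfib did not pass the test, with medians of 45.1 and 35.7 RPKM for Egr2 and 5.43 and 4.37 for Nfib in basal cells and fibroblasts.

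The transcription factors that drive epithelial to mesenchymal transition split between the cell types. Snai2, Snai3 and Sox9 were higher in basal cells, and the other 9 of 12 were higher in fibroblasts, each by at least 8-fold. Of all genes tested, 13% were at least 8-fold higher in fibroblasts. Snai2, the repressor Slug, ranged from 18.5 to 32.9 RPKM in basal cells, median 23.5, and from 3.16 to 8.15 in fibroblasts, median 4.47. Its relative Snai1 ran the other way, from 0.750 to 3.94 RPKM in basal cells, median 1.29, and from 15.1 to 52.3 in fibroblasts, median 26.1. The groups did not overlap for either gene, and the log2 differences were 2.21 ± 0.12 for Snai2 (adjusted p = 2.42e-09) and -4.25 ± 0.26 for Snai1 (adjusted p = 8.97e-09).

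Zeb1 and Zeb2, zinc finger repressors of epithelial genes, were all but absent from basal cells. Zeb1 lay between 0.0521 and 0.0960 RPKM in basal cells and between 6.68 and 16.6 in fibroblasts, a log2 difference of -7.66 ± 0.16 (adjusted p = 1.89e-12). Zeb2 differed by -8.48 ± 0.18 (adjusted p = 2.31e-12), and Twist1 and Twist2 by -7.38 ± 0.23 and -8.23 ± 0.30 (adjusted p = 3.73e-11 and 1.15e-10). In luminal cells Zeb1 had a mean of 0.0550 RPKM and Twist2 of 0.00648. Prrx1, a homeobox factor of mesenchyme, was also at least 8-fold higher in fibroblasts, but with Snai2 it was among the genes of this group that met the rule for genes shared by both types given further on.

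On the fibroblast side, under the rule used for basal cells, the 12 genes with the largest fold change were C7, Ifi205, Mlana, Dpt, Adgrd1, Scg3, Glycam1, Tyrp1, Ifi207, Fndc1, Inmt and Pcolce2, with log2 differences from -13.34 to -10.95. C7, a terminal complement component, ranged from 0 to 0.0295 RPKM in basal cells and from 48.4 to 148 in fibroblasts, median 76.5. Dpt, the matrix protein dermatopontin, ranged from 0.0647 to 0.464 RPKM in basal cells and from 325 to 1048 in fibroblasts, median 696. Neither gene overlapped, and the differences were -13.34 ± 0.25 for C7 (adjusted p = 1.89e-12) and -11.66 ± 0.20 for Dpt (adjusted p = 1.54e-12).

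A few of these genes were far higher in a single fibroblast library or are known as genes of other cells. The part of such cells in their levels was not tested. Mlana and Tyrp1 are genes of pigment cells. Tyrp1 stood at 247 RPKM in the fibroblasts of diestrus replicate 2 and between 0.138 and 0.515 in the other 7 fibroblast libraries, and without that pool its log2 difference was -5.45 in place of -11.25. Mlana was at 140 RPKM in the same library and between 5.87 and 16.8 in the other 7, and had no count in any basal library, so the fibroblast mean was at least 1347-fold higher, against a floor of 3 counts over the 8 basal libraries, and at least 532-fold higher with the diestrus replicate 2 fibroblasts left out, an alternative added after seeing the data. Glycam1, a mucin-like protein of lymphoid endothelium and of milk, ranged from 104 to 5112 RPKM in fibroblasts, median 1521, and from 0.0279 to 4.17 in basal cells, median 0.223.

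Of the 22 genes of the fibroblast lineage, 21 were higher in fibroblasts, beside 39.1% of all genes tested, and none was higher in basal cells. Their median log2 difference was -7.50. Osr1, a zinc finger factor of mesenchyme, was the gene that did not pass the test. It ranged from 9.42 to 19.5 RPKM in basal cells, median 13.9, and from 5.32 to 22.4 in fibroblasts, median 13.3, against a mean of 0.185 in luminal cells. Vim, the intermediate filament vimentin, lay between 38.6 and 85.8 RPKM in basal cells, median 72.0, and between 539 and 889 in fibroblasts, median 763, while its mean in luminal cells was 0.778. Pdgfrb, shared by fibroblasts and pericytes, differed by -7.36 ± 0.27 (adjusted p = 1.08e-10).

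**Figure D4:**
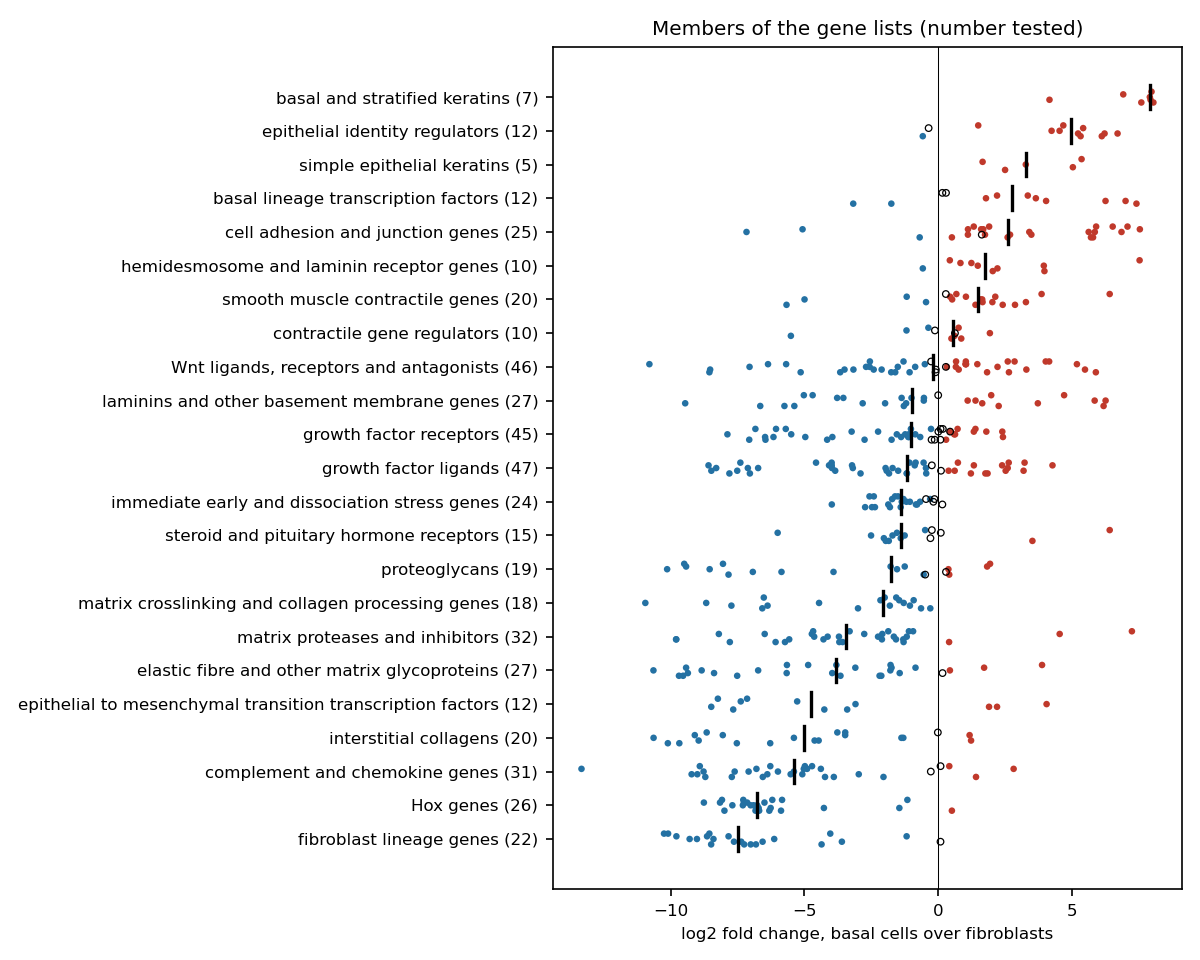
Log2 fold change of basal cells over fibroblasts for each tested member of 23 gene lists, ordered by the list median (black bar), with open circles for members that did not pass the test. Keratins had the highest median, 7.93, and fibroblast lineage genes the lowest, -7.50, while contractile, Wnt and basement membrane genes spread to both sides.

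RNA of most interstitial matrix genes was higher in fibroblasts than in basal cells. Of 20 interstitial collagens 17 were higher in fibroblasts and 2 in basal cells, beside 39.1% and 37.0% of all genes tested. Of the 17, 15 were at least 8-fold higher, beside 13% of all genes tested. The median log2 difference of the collagens was -5.00. The log2 difference of Col1a1 was -9.68 ± 0.47 (adjusted p = 1.04e-09) and that of Col3a1 was -10.64 ± 0.44 (adjusted p = 2.78e-10). Col16a1 and Col12a1, collagens that associate with fibrils, were those higher in basal cells. Col16a1 ranged from 110 to 173 RPKM in basal cells, median 148, and from 28 to 84.4 in fibroblasts, median 66.3, without overlap. Col14a1 did not pass the test (-0.01 ± 0.19, adjusted p = 0.982), at medians of 89.3 RPKM in basal cells and 71.6 in fibroblasts.

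Of 19 proteoglycans, 13 were higher in fibroblasts and 4 in basal cells, beside 39.1% and 37.0% of all genes tested. The 4 in basal cells were cell surface proteoglycans, the syndecans Sdc4 and Sdc3 and the glypicans Gpc1 and Gpc4. Sdc4 ranged from 374 to 694 RPKM in basal cells, median 575, and from 97.8 to 165 in fibroblasts, median 145. Lum, the collagen-binding lumican, had a median of 0.757 RPKM in basal cells and 900 in fibroblasts. Genes that crosslink or trim collagen were higher in fibroblasts in 18 of 18 cases. Loxl2, a lysyl oxidase, ranged from 0.0557 to 0.182 RPKM in basal cells and from 28.9 to 55.7 in fibroblasts.

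Of 27 elastic fibre and matrix glycoprotein genes, 23 were higher in fibroblasts and 3 in basal cells, beside 39.1% and 37.0% of all genes tested. Ltbp2, a matrix protein that joins microfibrils, was one of the 3. It ranged from 102 to 154 RPKM in basal cells, median 115, and from 1.14 to 27.6 in fibroblasts, median 8.70. The other two were Fbn2 and Thbs1, at 1.73 ± 0.22 (adjusted p = 1.11e-05) and 0.45 ± 0.14 (adjusted p = 0.0133). Eln, which encodes elastin, did not pass the test, with medians of 18.6 RPKM in basal cells and 17.1 in fibroblasts. Of 32 matrix proteases and inhibitors, 29 were higher in fibroblasts, beside 39.1% of all genes tested. Serpinb5, the epithelial serpin maspin, and Adamts18 were the members at least 8-fold higher in basal cells, with Serpinb5 between 100 and 135 RPKM in basal cells and between 0.202 and 3.09 in fibroblasts.

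Of 27 basement membrane genes, 10 were higher in basal cells and 16 in fibroblasts, where 37.0% and 39.1% of all genes tested were. The basal group included laminin chains of the epithelial basement membrane. Lama3, a laminin alpha chain, had medians of 81.1 RPKM in basal cells and 1.24 in fibroblasts, a log2 difference of 5.86 ± 0.27 (adjusted p = 7.82e-10).

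Lama2, a laminin alpha chain of muscle and mesenchyme, ran the other way, from 0.0357 to 0.284 RPKM in basal cells and from 37.2 to 133 in fibroblasts, median 70.2. The nidogens, which bridge laminin and collagen IV, were also higher in fibroblasts, with Nid1 at -5.02 ± 0.14 (adjusted p = 1.42e-11) and Nid2 at -5.37 ± 0.15 (adjusted p = 1.39e-11). Col4a1, a main chain of collagen IV, ranged from 120 to 261 RPKM in basal cells, median 165, and from 290 to 484 in fibroblasts, median 366, without overlap. Col4a2, transcribed next to it, had medians of 152 and 216 RPKM, and its groups overlapped.

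Several smooth muscle contractile genes, Acta2, Tagln and Myl9 among them, had medians over 290 RPKM in both cell types. The 2 promoters shown here belong to Acta2, smooth muscle actin, and Myl9, the regulatory myosin light chain, because both genes were expressed in basal cells and fibroblasts and were close to absent from luminal cells. They come from RefSeq on GRCm38.p6 and run from 250 bases before to 50 after the transcript start, 5′ to 3′, with CArG boxes in capitals. The CArG box is the element bound by serum response factor. It was searched as 10 bases with a core of 6 that were A or T in all positions but at most 1, which covers both strands because its ends mirror each other.
Acta2 promoter, chr19:34255324-34255623, minus strand: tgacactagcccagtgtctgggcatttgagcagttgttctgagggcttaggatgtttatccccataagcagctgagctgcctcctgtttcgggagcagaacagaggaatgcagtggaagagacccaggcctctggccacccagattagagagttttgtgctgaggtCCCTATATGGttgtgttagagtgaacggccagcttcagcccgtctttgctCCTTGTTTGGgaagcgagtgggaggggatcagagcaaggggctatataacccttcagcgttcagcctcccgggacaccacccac
Myl9 promoter, chr2:156775214-156775513, plus strand: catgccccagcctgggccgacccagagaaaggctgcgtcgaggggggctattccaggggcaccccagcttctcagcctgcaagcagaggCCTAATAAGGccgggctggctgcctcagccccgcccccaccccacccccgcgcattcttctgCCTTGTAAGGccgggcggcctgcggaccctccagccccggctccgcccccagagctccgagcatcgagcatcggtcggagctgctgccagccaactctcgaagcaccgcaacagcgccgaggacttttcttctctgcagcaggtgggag
Each held 2 boxes, which began 84 and 34 bases before the start in Acta2 and 161 and 99 bases before it in Myl9. In the RefSeq table, 16 of the 20 contractile genes had promoters, 19 in all, of which 5 held a box (26.3%). A box was found in 54 of 555 promoters of the shared genes described further on (9.73%) and in 9.98% of all 32851 promoters of 300 bases.

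Of the 20 contractile genes, 15 were higher in basal cells and 4 in fibroblasts, beside 37.0% and 39.1% of all genes tested. Their median log2 difference was 1.5. Acta2 ranged from 1122 to 2761 RPKM in basal cells, median 1644, and from 214 to 571 in fibroblasts, median 296, while its mean in luminal cells was 1.57. The groups did not overlap, and the difference was 5.36-fold (log2 2.42 ± 0.15, adjusted p = 1.01e-08). Cnn1, the actin-binding protein calponin, showed a larger gap, from 128 to 336 RPKM in basal cells, median 230, and from 9.19 to 30.9 in fibroblasts, median 13.9. Oxtr, the oxytocin receptor, ranged from 9.06 to 54.3 RPKM in basal cells, median 18.5, and from 0.0232 to 0.647 in fibroblasts, median 0.147, a log2 difference of 6.42 ± 0.50 (adjusted p = 1.13e-07).

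Some other contractile genes differed less than Acta2. Tagln, the actin-binding protein transgelin, ranged from 520 to 1094 RPKM in basal cells, median 841, and from 195 to 567 in fibroblasts, median 298, so that the groups overlapped although basal cells were higher in 8 of 8 pools (1.40 ± 0.14, adjusted p = 1.14e-06). Myh11, the smooth muscle myosin heavy chain, ranged from 97.2 to 184 RPKM in basal cells, median 141, and from 74.7 to 124 in fibroblasts, median 86.8 (0.53 ± 0.16, adjusted p = 0.00859). Myl9 ranged from 155 to 470 RPKM in basal cells, median 329, and from 230 to 839 in fibroblasts, median 376, and was higher in fibroblasts in 6 of 8 pools (-0.45 ± 0.14, adjusted p = 0.0111), a call that was lost without the block (adjusted p = 0.121) and in the fit of all 32 adult libraries (adjusted p = 0.134).

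Des, Ldb3, Synpo2 and Myl9 were the contractile genes higher in fibroblasts. Des, the muscle intermediate filament desmin, ranged from 0.476 to 1.51 RPKM in basal cells and from 14.5 to 43.6 in fibroblasts, median 21.3. Among the pericyte markers Rgs5 had a median of 17.9 RPKM in fibroblasts and 0.364 in basal cells, and the summed pericyte markers had a median of 305 RPKM in fibroblasts. The summed contractile genes had medians of 4848 RPKM in basal cells, 1516 in fibroblasts and 359 in luminal cells. The same 4 fibroblast libraries had the highest contractile and pericyte sums: estrus replicates 1 and 2, diestrus replicate 2 and proestrus replicate 2. The same 2 were lowest in both, metestrus replicate 2 and diestrus replicate 1. Des belongs to both lists, and other lists had the same top 4. Endothelial sums were 562 to 590 RPKM in these 4 and at most 381 in the other fibroblast libraries. Leukocyte sums were 184 to 291 RPKM in these 4 and at most 126 in the others. The part of pericytes in the contractile genes of the fibroblast libraries was not tested.

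Of 10 regulators of contractile genes, 5 were higher in basal cells and 3 in fibroblasts, near the 37.0% and 39.1% of all genes tested. Myocd, the muscle coactivator myocardin, ranged from 0.00938 to 0.130 RPKM in basal cells and from 1.5 to 2.81 in fibroblasts, median 2.46 (-5.50 ± 0.31, adjusted p = 4.62e-09). Mrtfa, an actin-sensing coactivator of the same family, ran from 20.7 to 32.0 RPKM in basal cells, median 25.5, and from 4.92 to 8.81 in fibroblasts, median 6.0 (1.94 ± 0.12, adjusted p = 1.33e-08). Srf, their DNA-binding partner, differed by 0.50 ± 0.10 (adjusted p = 0.000449). Mrtfb, the other member of the Mrtfa family, was higher in fibroblasts in 8 of 8 pools, at medians of 3.22 RPKM in basal cells and 7.13 in fibroblasts (-1.18 ± 0.13, adjusted p = 3.60e-06).

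Signals and their receptors were unequally shared. Of 47 growth factor ligands, 14 were higher in basal cells and 31 in fibroblasts, beside 37.0% and 39.1% of all genes tested. Jag1, a Notch ligand, ranged from 118 to 232 RPKM in basal cells, median 170, and from 20.3 to 35.4 in fibroblasts, median 25.9. Jag2 and Dll1, which also bind Notch, had medians of 6.66 and 33.8 RPKM in basal cells and 1.14 and 4.75 in fibroblasts. The receptors Notch1 and Notch3 were higher in fibroblasts, at -3.23 ± 0.13 (adjusted p = 2.42e-10) and -6.45 ± 0.26 (adjusted p = 2.44e-10). Notch3 is also a receptor of pericytes.

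Fgf7, a ligand that acts on epithelium, ranged from 0.0172 to 0.0769 RPKM in basal cells and from 5.66 to 31.1 in fibroblasts, median 15.3. The gene of a receptor, Fgfr2, had medians of 16.2 RPKM in basal cells and 2.42 in fibroblasts (2.43 ± 0.22, adjusted p = 3.72e-07). Il6, a cytokine, ranged from 400 to 1158 RPKM in fibroblasts, median 656, and from 2.00 to 5.56 in basal cells. Pdgfc, a ligand of Pdgfra, was higher in basal cells, with medians of 8.58 and 0.794 RPKM (3.20 ± 0.15, adjusted p = 6.20e-10). The collagen receptors were split, with Ddr1 at 1.81 ± 0.09 (adjusted p = 1.27e-09) and Ddr2 at -6.06 ± 0.24 (adjusted p = 1.99e-10). Over 45 receptors, 11 were higher in basal cells and 27 in fibroblasts, beside 37.0% and 39.1% of all genes tested.

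Of 46 Wnt pathway genes, 20 were higher in basal cells and 22 in fibroblasts, with a median log2 difference of -0.17, beside 37.0% and 39.1% of all genes tested, so the split is close to that of all genes. Fzd7, a frizzled receptor, ranged from 35.5 to 139 RPKM in basal cells, median 89.9, and from 6.98 to 21 in fibroblasts, median 9.16. Lgr4 and Lgr5, receptors for R-spondins, had medians of 20.3 and 6.89 RPKM in basal cells and 3.06 and 1.09 in fibroblasts. Among ligands, Wnt10a had medians of 15.5 and 0.902 RPKM and Wnt2 of 0.0339 and 12.1 in basal cells and fibroblasts. Of the antagonists, Wif1 was higher in basal cells at 5.20 ± 0.54 (adjusted p = 1.67e-06), and Sfrp4 and Dkk2 were higher in fibroblasts at -10.80 ± 0.29 and -8.52 ± 0.36 (adjusted p = 1.27e-11 and 3.44e-10).

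Of 15 hormone receptors, 2 were higher in basal cells, Oxtr and the vitamin D receptor Vdr, and 10 were higher in fibroblasts. Of all genes tested the shares were 37.0% and 39.1%. Vdr ranged from 21.5 to 32.8 RPKM in basal cells, median 26.2, and from 1.30 to 5.42 in fibroblasts, median 1.94. Esr1, the estrogen receptor, had medians of 0.511 RPKM in basal cells and 2.03 in fibroblasts, against a mean of 10.7 in luminal cells (-1.95 ± 0.18, adjusted p = 4.79e-07). Pgr, the progesterone receptor, did not pass the test, at medians of 0.240 and 0.294 RPKM and a luminal mean of 27.8.

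Hox genes set position along the body axis. Of the 26 that passed the filter, 25 were higher in fibroblasts, beside 39.1% of all genes tested. At least 8-fold differences numbered 23, beside 13% of all genes tested, and the median log2 difference was -6.78. Of 38 Hox genes counted, 3 had a mean CPM, the read count scaled to library size, of at least 1 in both types. The others could pass the filter through fibroblasts alone, so the filter itself favoured this direction. Hoxc10 ranged from 0 to 0.0486 RPKM in basal cells and from 3.01 to 8.17 in fibroblasts, median 4.69. Hoxb3 was the exception, at medians of 1.5 and 0.917 RPKM (0.52 ± 0.17, adjusted p = 0.0135), and its call was lost without proestrus replicate 2 (adjusted p = 0.0524). Of 31 complement and chemokine genes, 26 were higher in fibroblasts and 3 in basal cells, beside 39.1% and 37.0% of all genes tested. Cxcl14, a chemokine of epithelia, was one of the 3 and ranged from 496 to 1036 RPKM in basal cells, median 726, and from 55.0 to 183 in fibroblasts, median 94.0. Ccl2, which attracts monocytes, ranged from 729 to 3162 RPKM in fibroblasts, median 1751, and from 8.29 to 28.3 in basal cells.

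Of 24 immediate early and stress genes, which respond to tissue dissociation, 20 were higher in fibroblasts and none in basal cells. The shares of all genes tested were 39.1% and 37.0%, and the median log2 difference of the listed genes was -1.37. Egr1 ranged from 31.5 to 131 RPKM in basal cells, median 61.6, and from 194 to 559 in fibroblasts, median 313. Il6 and Ccl2 stand among the genes given above, and the part of dissociation in their levels was not tested.

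Basal cells and fibroblasts also shared genes with a lower level in luminal cells. By a rule on the values themselves, 579 genes had a mean CPM (the read count scaled to library size alone) of at least 1 in both types and at least 8 times higher in both than in luminal cells, 5.23% of the 11062 genes with a mean of at least 1 CPM in both. The rule was met within each of the 8 pools by 374 of them. It set no limit on adipocytes. For 268 of the 579 genes the adipocyte mean CPM exceeded the lower of the basal and fibroblast means. The set is thus low in luminal cells but not particular to basal cells and fibroblasts. As the rule used these values, the levels are a description and carry no test against luminal cells. Just inside the factor of 8, among genes over 20 CPM, were Lrig3, Prss12 and Tgfb1i1 at 8.17, 8.20 and 8.21, and just outside were Ifitm3, Lmod1 and Ksr1 at 7.96, 7.79 and 7.75.

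The 12 shared genes with the highest lower mean included Postn, Apoe, Sparc, Col4a1, Col4a2, Axl, Acta2, Myh11, Adamts1, Tagln and Serpina3n. Those named encode matrix, contractile, secreted and receptor proteins. Sparc, a collagen-binding glycoprotein of the matrix, ranged from 335 to 537 RPKM in basal cells, median 445, and from 639 to 1516 in fibroblasts, median 1126, against a luminal mean of 1.12. Postn, the matrix protein periostin, ranged from 146 to 317 RPKM in basal cells, median 227, and from 180 to 710 in fibroblasts, median 398, against a luminal mean of 0.629. Apoe, a lipid carrier, had medians of 848 RPKM in basal cells and 804 in fibroblasts, with overlapping groups and a luminal mean of 34.5.

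Axl, a receptor tyrosine kinase, ranged from 113 to 186 RPKM in basal cells and from 103 to 183 in fibroblasts, with a luminal mean of 2.22. Its log2 difference of -0.26 ± 0.11 was near the threshold (adjusted p = 0.0440), and the call was lost under 9 of 14 alternatives. Serpina3n, a secreted protease inhibitor, had medians of 337 and 283 RPKM and a luminal mean of 1.58, and did not pass the test between basal cells and fibroblasts (adjusted p = 0.102). A p that misses the threshold does not show that the levels were equal.

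Among genes with a mean of at least 1 CPM in both types, of which 5.23% met the rule, it was met by 13 of 19 contractile genes. The same held for 12 of 16 interstitial collagens and 12 of 23 elastic fibre and glycoprotein genes. It also held for 12 of 25 proteases and inhibitors and 9 of 24 basement membrane genes. No gene of the basal keratins or of the simple keratins met it. Snai2 did, with a luminal mean of 0.0327 RPKM, as did Osr1 and Lmo1. Meeting the rule did not mean equal levels: 123 of the 579 genes were higher in basal cells, 354 higher in fibroblasts and 102 did not pass the test, with a median log2 difference of -0.98. The means lay within 2-fold of each other for 210 genes, and for 124 the fibroblast mean exceeded the basal mean over 8 times. Col1a1, at a median of 1.0 RPKM in basal cells and a mean of 0.135 in luminal cells, was one of the latter, and its basal mean was 0.141% of its fibroblast mean. Col1a2 and Col3a1 were others, with means of 18.6 and 5.62 CPM in basal cells and 8667 and 7685 in fibroblasts. These collagens are among the markers whose summed trace in basal libraries was 0.136% to 0.359%. Members of the other lists that met the rule were also low in basal cells. Mmp3 had means of 2.51 CPM in basal cells and 1978 in fibroblasts, Lama2 of 1.94 and 1204, and Sparcl1 of 4.20 and 1586. For 13 of the 579 genes the basal mean exceeded the fibroblast mean over 8 times. The part of fibroblast RNA in the basal levels of the genes counted here was not tested.

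**Figure D5:**
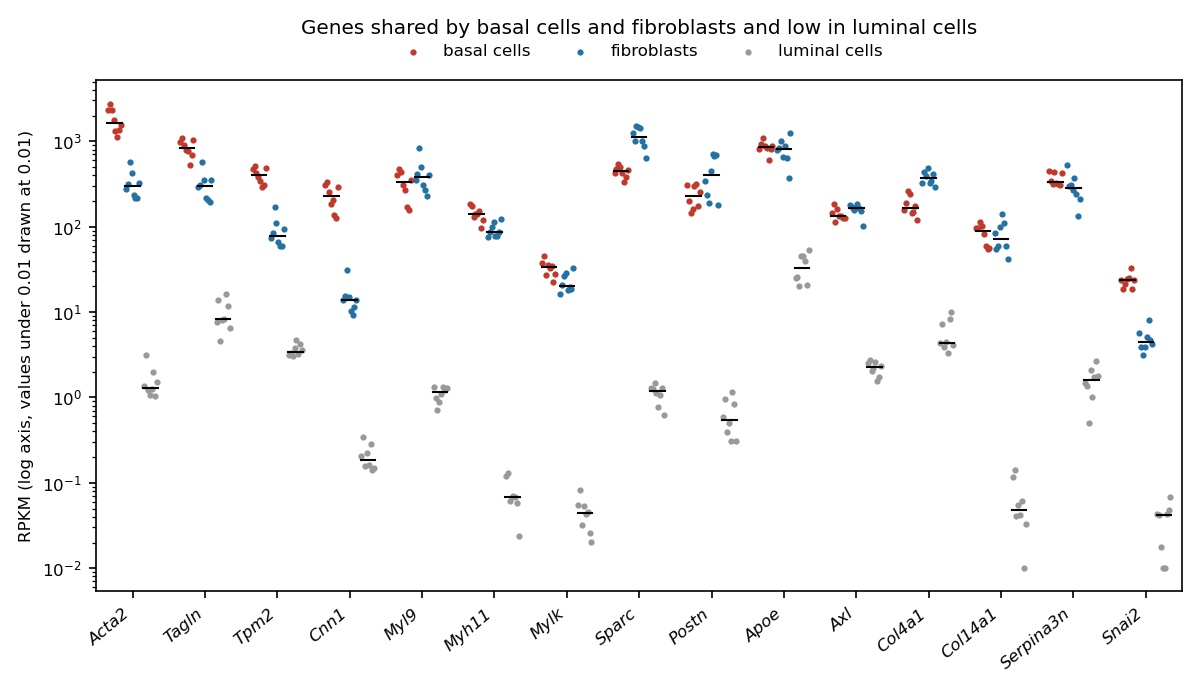
RPKM on a log axis of 15 genes shared by basal cells and fibroblasts and low in luminal cells, with 1 point per library of the 8 adult pools and a black bar at each median. Acta2 and Sparc lay above 200 RPKM in all libraries of both types and near 1 in luminal cells, and Snai2 stood higher in basal cells, at 18.5 to 32.9 RPKM, than in fibroblasts, at 3.16 to 8.15.

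The pubertal libraries, from other mice of 34 to 36 days and counted in a separate table, gave the same comparison in 2 basal and 2 fibroblast libraries, each from 4 pooled mice. Krt14 stood at 1567 and 2208 RPKM in pubertal basal cells and at 21.3 and 22.7 in fibroblasts. Col1a1 stood at 0.396 and 0.244 RPKM in basal cells and at 2589 and 2163 in fibroblasts. Of 14263 genes tested with edgeR, 2161 were higher in basal cells (15.2%) and 2941 in fibroblasts (20.6%).

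Of the 458 genes at least 8-fold higher in adult basal cells, 420 were tested in puberty and all 420 had the same sign, 389 of them past the test. Of the 1793 on the fibroblast side 1615 were tested, 1596 had the same sign, 1481 passed the test in the same direction and 1 in the opposite direction. Genes at least 8-fold apart in both ages numbered 328 on the basal side, 78.1% of the adult genes tested in puberty and 59.0% of the 556 pubertal genes, and 1294 on the fibroblast side, 80.1% and 85.9% of 1507. The shared rule was met in the pubertal libraries by 452 of the 579 genes (78.1%), where 674 genes met it in all (6.0% of 11225 with at least 1 CPM in both).

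Some matrix and contractile genes had different values at the 2 ages, a contrast that was not tested and in which age and any difference in handling between the separate tables cannot be told apart. Eln differed by -3.94 in puberty (adjusted p = 0.000252) and by 0.17 in adults. Col4a1 was at 0.43 in puberty (adjusted p = 0.553) and at -1.19 ± 0.11 in adults (adjusted p = 4.77e-07). Oxtr was higher in basal cells at both ages, by 3.11 in puberty (adjusted p = 0.00892) and 6.42 in adults. The pattern of Snai2 and the Zeb and Twist genes held in puberty, with Snai2 at 1.74 (adjusted p = 0.00425), Zeb1 at -7.83 (adjusted p = 3.37e-05) and Twist1 at -10.71 (adjusted p = 8.08e-05).

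Whether the gap between the cell types changed over the estrous cycle was asked with a test of cell type by stage. With edgeR 0 of 13761 genes passed an adjusted p of 0.05 (0% called), 2126 had an unadjusted p under 0.05, and DESeq2 called 323. Within single stages 3353 to 3829 genes were higher in basal cells and 4268 to 4436 in fibroblasts. With 2 pools per stage the fit left 4 residual degrees of freedom.

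The 6 genes with the smallest p were Nr4a1, Ackr1, Fosb, Sele, Egln3 and Sox7. Nr4a1, an immediate early nuclear receptor, stood in basal cells at 209 and 179 RPKM in proestrus and at 30.7 to 72.7 in the other stages, while the fibroblast libraries ran from 275 to 521. Its log2 difference was -1.03 ± 0.17 in proestrus and -3.64 ± 0.19 in metestrus (adjusted p of the stage test = 0.0540). Ackr1 and Sele, adhesion and chemokine-binding proteins of endothelium, had adjusted p = 0.0860 each. Ackr1 ranged from 134 to 375 RPKM in fibroblasts, and in basal cells from 0.854 and 1.12 in proestrus to 5.62 in metestrus replicate 2. Sele ranged from 46.4 to 117 RPKM in fibroblasts, and in basal cells from 0.189 and 0.207 in proestrus to 3.03 in metestrus replicate 2, the basal library with the highest sum of endothelial markers. Egln3, an oxygen-sensing hydroxylase, had a log2 difference of 4.04 ± 0.23 in proestrus and 1.65 ± 0.21 in diestrus (adjusted p = 0.0860). None of these 6 passed the threshold.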

How the data were processed

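The authors sequenced stranded polyA libraries, aligned the reads with TopHat2 2.1 and Bowtie 1.1.0 and counted them per gene with HTSeq on GRCm38 (mm10), according to the submitters' processing notes; the deposited tables hold these raw counts per gene, and the normalized tables deposited with them were not used. The adult counts covered 25044 genes and the pubertal counts 24268 genes, of which 24739 and 23989 were matched to a symbol in GENCODE M21. RPKM used summed exon lengths and TMM sizes.

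Counts were tested in R 4.3.3 with edgeR 4.0.16 (TMM, quasi-likelihood F-test, Benjamini-Hochberg adjustment over all genes tested) on genes over 1 CPM in at least 2 libraries. The pool entered as a block because both libraries of a pool came from the same mice; across genes, the deviations of paired libraries from their group means correlated with r from 0.0231 to 0.448, over 0.1 in 7 of 8 pools. The labels give 2 pools per stage. Alternatives used DESeq2 1.42.0, other size factors, no filter, no block and each pool left out. No 2 libraries were identical.

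The comparison, its members and the 31 gene lists were chosen with earlier results of these data known. Named genes were the 12 per direction with the largest fold change at a mean of at least 20 RPKM and the same sign in 8 pools, without predicted genes; all members of lists of at most 15 genes, and of longer lists the 4 per direction with the smallest p and any defining marker; the 12 shared genes with the highest lower mean and those in a list; and the 6 genes with the smallest stage p. Counting covered genes as the authors defined them, so reads of near-identical paralogs could be lost or split. Some items named by this rule are not reported here.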

Additional observations from a re-analysis of the deposited data

Results flagged for a closer look

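Single libraries stood apart from the other 7 of their group by the gap to the nearest library over the whole range, a test that chance passes in about 1 of 20 groups and that was made on 80 groups. In fibroblasts these were Tyrp1 at 247 RPKM, Mlana at 140 RPKM and Glycam1 at 5112 RPKM, all in diestrus replicate 2, where the next highest libraries were at 0.515, 16.8 and 2282. Trp63 at 1.73 RPKM and Krt15 at 0.668 RPKM were highest in the fibroblasts of diestrus replicate 1, the library with the largest trace of basal keratins. Summed erythroid markers reached 56.1 RPKM in the fibroblasts of estrus replicate 2, with the next at 17.5. In basal cells, Il24 was low at 12.6 RPKM in proestrus replicate 1, where the other 7 ran from 22.8 to 30.9. Glycam1 at 4.17 RPKM in proestrus replicate 2 and Scg3 at 0.0365 RPKM in proestrus replicate 1 were high among basal libraries. The summed endothelial markers were high at 8.13 RPKM in metestrus replicate 2, and the summed leukocyte markers at 29.03 RPKM in diestrus replicate 1.

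Among the named genes, 2 passed the test in opposite directions at the 2 ages, with all pools or pairs on opposite sides; the contrast between ages was not tested. Mcam, an adhesion molecule of pericytes and endothelium, had a log2 difference of 0.59 in adults and -1.83 in puberty. Klk10, an epithelial kallikrein, had -3.58 in adults, at levels under 2 RPKM in both types, and 1.80 in puberty.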

How the results depend on the processing

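Without the replicate block, 10105 genes differed between adult basal cells and fibroblasts, against 10473 with it. The count kept within 1.5 times under the 14 alternatives, as did the count of genes at least 8-fold apart, and leaving out a pool gave 9915 to 10448. Of 353 named genes tested, 28 crossed the threshold under at least 1 alternative and none changed sign while called; the call was lost most often for Axl, under 9 of them, Cidea under 8 and Wfdc18 under 5, with Mylk and Gpc4 at 4 each. The stage test moved most: DESeq2 called 323 genes, no filter on low counts 1215, and leaving out pools 0 to 216, with 216 without estrus replicate 2, 7 without diestrus replicate 1 and 1 each without diestrus replicate 2 and estrus replicate 1; the cause was not tested. In puberty, leaving out each of the 4 libraries in turn, chosen after seeing the data since leaving out a replicate number left no residual degrees of freedom, gave 2858 to 3254 genes against 5102, with the lone library assumed to vary like the other groups, and the replicate block gave 5486. The shared genes numbered 1845 with no floor on CPM, 285 with a floor of 10 CPM, 374 with the factor met in each pool and 511 with total counts, against 579. Depth limits genes near the filter, where counts are few.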
